A study of Mus musculus with 10 samples.

Results

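Gnas is an imprinted gene of mouse chromosome 2 that is transcribed from several alternative starts, and its DNA methylation was followed here in 2 fractions of spermatogonia. The members are all cytosines of CpGs, on both strands, that had at least 5 reads in both libraries between positions 174270000 and 174360000 (mm10), a span of 90 kb around the gene. They number 825 cytosines in 532 CpGs, of 6745376 cytosines in the whole table. Within the span they were chosen by position and read number alone, while the locus itself was chosen with earlier results of these data known.

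The cells came from testes of postnatal day 6 pups of the mouse strain LT-11B6, which carries the Id4-eGfp transgene on a C57BL/6 background. Cells positive for the ID4-EGFP reporter, which marks undifferentiated spermatogonia, were stained for the surface tetraspanin TSPAN8, and the most strongly and the most weakly stained cells were sorted as TSPAN8-high and TSPAN8-low. DNA of 5 pooled sorts of each fraction (300 ng) was read by reduced-representation bisulfite sequencing (RRBS), in which the enzymes BfaI, MseI and MspI cut the genome and bisulfite converts unmethylated cytosines. Each fraction gave 1 library, so no error between replicates can be given, tests compare these libraries rather than the conditions, and intervals cover counting error only. The number of animals behind a sort was not given in the sources used here, and the 8 chromatin samples of the series were not analysed here. Summed over the cytosines of the table, the read counts of the libraries were 83658949 and 83773700, where a read counts at each cytosine it covers. The median was 10 per cytosine in each, and over the locus 10 and 11. The table does not separate the parental alleles, so a level between 0 and full methylation cannot be assigned to an allele or to a share of the cells. Where 2 levels are given as a pair, that of TSPAN8-high comes first.

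As background, the locus is a cluster of overlapping transcripts. The Nesp start makes the mRNA of a neuroendocrine secretory protein and is active on the maternal allele in the body. Nespas, listed in the gene table as Gnasas1, is an antisense RNA that runs across Nesp, Gnasxl encodes an extra-large form of the G protein subunit, exon 1A starts an untranslated RNA, and all these are active on the paternal allele. Gnas exon 1 starts the mRNA of Gs alpha, the subunit that couples hormone receptors to adenylyl cyclase and so to cAMP. In oocytes the stretches at Nespas and Gnasxl and at exon 1A become methylated and carry the imprint to the offspring, whereas methylation of the paternal Nesp start is added after fertilization. In the male germ line earlier imprints are erased, and new methylation is placed at a few other control regions, such as that upstream of H19.

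Gnas lies on the plus strand from 174284320 to 174346744, and Gnasas1 from 174281237 to 174295436. The gene table gives no exons, so positions are given relative to annotated starts. In RefSeq (GRCm38.p6) Gnas has annotated starts at 174284320 (Nesp), 174327749 and 174327768 (exon 1A) and 174330006 (Gnas exon 1). These were named from the textbook order of the starts. The start of Nespas was taken as the upper end of Gnasas1, since it runs antisense. Gnasxl had no annotated start in the tables used and is named for the CpG-dense DNA between Nespas and exon 1A, from the same order. The promoter sequences show where the libraries could see methylation at 3 of these starts. Each runs from 250 bases before the start to 50 after, on the plus strand, and capitals mark the CpGs that had enough reads on at least 1 strand.
Nesp: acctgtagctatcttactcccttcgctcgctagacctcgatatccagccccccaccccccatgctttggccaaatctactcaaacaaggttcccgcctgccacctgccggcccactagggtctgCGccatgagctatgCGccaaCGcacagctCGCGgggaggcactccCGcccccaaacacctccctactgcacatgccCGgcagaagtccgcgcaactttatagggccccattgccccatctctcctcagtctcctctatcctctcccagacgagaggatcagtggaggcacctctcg
exon 1A: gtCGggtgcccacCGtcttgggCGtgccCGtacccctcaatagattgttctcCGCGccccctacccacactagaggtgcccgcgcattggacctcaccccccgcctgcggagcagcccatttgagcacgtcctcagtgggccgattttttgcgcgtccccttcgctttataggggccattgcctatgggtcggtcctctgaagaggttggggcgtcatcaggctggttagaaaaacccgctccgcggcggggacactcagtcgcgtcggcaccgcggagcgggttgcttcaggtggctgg
Gnas exon 1: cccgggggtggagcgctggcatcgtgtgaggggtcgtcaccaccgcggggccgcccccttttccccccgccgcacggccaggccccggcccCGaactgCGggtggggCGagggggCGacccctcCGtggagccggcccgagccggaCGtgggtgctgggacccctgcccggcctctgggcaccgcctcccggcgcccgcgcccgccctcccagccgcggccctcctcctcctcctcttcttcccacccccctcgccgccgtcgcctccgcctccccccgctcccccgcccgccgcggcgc
The Nesp window (chr2:174284070-174284369) holds 16 CpGs, of which 7 were read, at 13 cytosines. No methylated read was seen in either library at 11 of these cytosines. In all, 1 of 137 reads was methylated in TSPAN8-high (0.730%, exact 95% interval 0.0185 to 3.9997) against 2 of 169 in TSPAN8-low (1.18%, 0.144 to 4.21). The exon 1A window (chr2:174327499-174327798) holds 27 CpGs, of which 6 were read. Methylated reads numbered 1 of 68 in TSPAN8-high against 1 of 46 in TSPAN8-low, both at the cytosine 236 bp before the start (position 174327513). The Gnas exon 1 window (chr2:174329756-174330055) holds 40 CpGs, of which 6 were read. It had 0 of 76 methylated reads in TSPAN8-high against 0 of 38 in TSPAN8-low. With each count taken as a separate read, this allows levels of up to 3.95% and 7.89%. The minus-strand cytosines from 174329848 to 174329881 each had 14 and 6 reads. The same reads may thus be counted at several of them, and the levels allowed are then higher. The 3 windows were thus at or near 0 in both fractions where they were read. Their CpG content is high: of 32851 annotated promoters of this length, with a median of 7 CpGs, 33.0% hold at least 16, 15.5% at least 27 and 3.91% at least 40. The hexamer TGCCGC, the motif bound by the imprint-protecting zinc finger protein ZFP57 when methylated, was searched on both strands and is in none of the 3, against 11.6% of all promoters. Only these 3 windows were searched. The stretches at Nespas and Gnasxl, and the DNA at exon 1A outside its window, were not.

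Along the locus, the methylation level fell to near 0 over 3 groups of tiles that hold the starts, and stayed near full methylation between them. Among 51 tiles of 1 kb with at least 3 CpGs, 17 were below 10% in both libraries, 26 above 80% in both and 8 in between. Genome-wide, among 585220 such tiles, 7.40% were below 10% in both and 79.5% above 80%. Of the 17 low tiles of the locus, 4 lay at Nesp, 6 at Nespas and Gnasxl and 6 at exon 1A and Gnas exon 1. The remaining 1 lay near the upper end of Gnas (174345001 to 174346000), with 5.10% in TSPAN8-high against 6.90% in TSPAN8-low. By single cytosines, 465 of the 825 members were below 20% in both libraries and 254 above 80% in both, so 56.4% and 30.8%, against 18.2% and 63.7% over the table. The locus is thus richer in unmethylated cytosines than the table, and both libraries show the same shape.

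**Figure D1:**
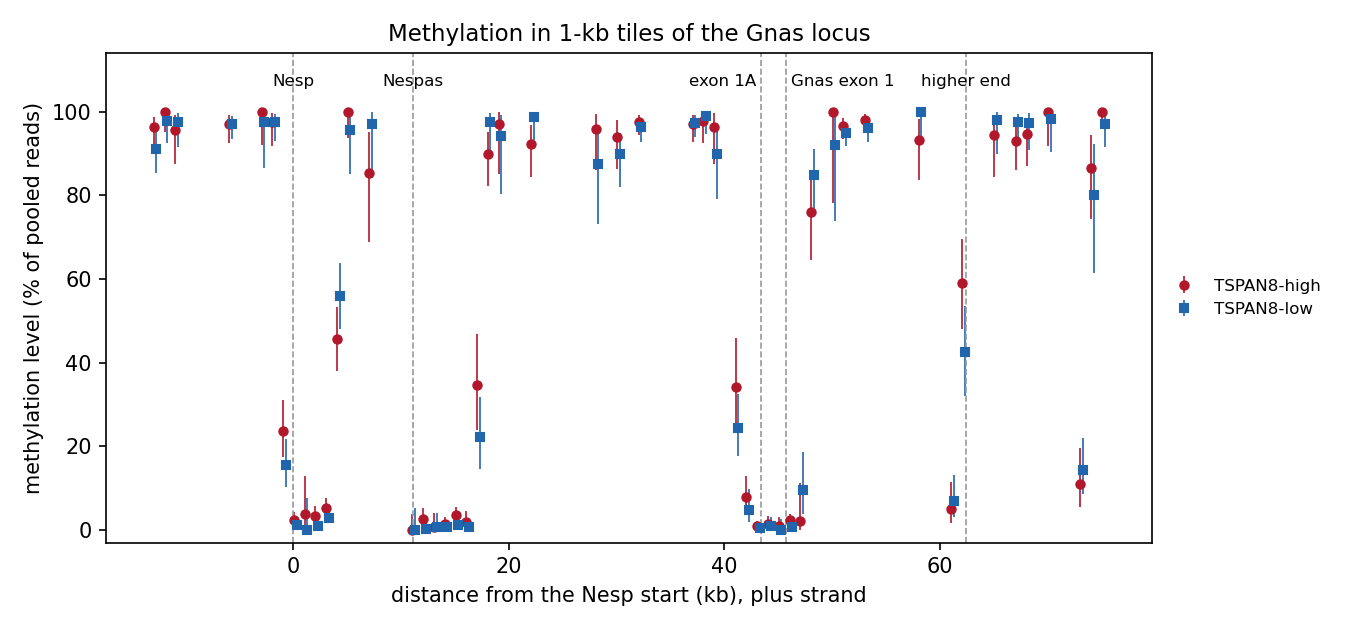
Methylation level (% of pooled reads) of 1-kb tiles with at least 3 CpGs against the distance from the Nesp start in kb, for TSPAN8-high (circles) and TSPAN8-low (squares), with exact 95% intervals of the counting error. Dashed lines mark the starts and the upper end of Gnas. Tiles at the starts lie near 0 and tiles between them near 95%, in both libraries.

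The DNA around and between the low tiles was close to full methylation in most segments. Below the Nesp tiles, 46 CpGs from 174270000 to 174283000 were at 97.3% in TSPAN8-high against 96.1% in TSPAN8-low. Between the Nesp and the Nespas tiles 10 CpGs were at 96.2% and 95.1%. In the 23 kb from Gnasxl to exon 1A, 58 CpGs were at 94.6% (exact 95% interval 93.2 to 95.8) and 95.4% (94.1 to 96.4). Levels in these 3 segments differed between the libraries by 1.16, 1.07 and -0.770 percentage points, high minus low, and each interval of the difference included 0. The rest of Gnas, from 174332001 to its upper end, averaged lower, at 79.98% and 79.9%, and includes the low tile named above. Beyond the gene, to 174360000, the level was 83.6% in TSPAN8-high against 82.4% in TSPAN8-low.

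At Nesp, 4 tiles below 10% lay between 2 edge tiles, from 174283001 to 174289000 in all. The tile at 174282001 was at 97.6% in TSPAN8-high against 97.5% in TSPAN8-low, and the next, which ends 320 bp before the Nesp start, at 23.8% and 15.5%. The 4 inner tiles lay between 2.52% and 5.38% in TSPAN8-high, and those of TSPAN8-low between 0% and 2.78%. The last tile (174288001 to 174289000) was at 45.6% and 56.0%, and the one after it at 100% and 95.7%. Within that last tile the level climbed along 474 bp. The first cytosine, at 174288089, had 4 of 17 methylated reads in TSPAN8-high against 6 of 13 in TSPAN8-low. At 174288276 the reads were 10 of 14 and 11 of 17, and at 174288562 they were 14 of 14 in both. Both libraries thus went from partial to full or nearly full methylation within this tile.

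At Nespas and Gnasxl, 6 tiles from 174295001 to 174301000 were below 10% in both libraries, followed by 1 edge tile. The first of them, which holds the Nespas start, had no methylated read. Its 7 CpGs had 0 of 92 reads in TSPAN8-high against 0 of 69 in TSPAN8-low. With each count taken as a separate read, this allows 3.26% and 4.35%. The inner tiles lay between 0.758% and 3.66% in TSPAN8-high and between 0.312% and 1.10% in TSPAN8-low. The edge tile, to 174302000, was at 34.7% and 22.2%, and the tile after it at 89.9% and 97.4%. On the lower side no tile with 3 CpGs was read between 174292001 and 174295000, so that edge was not located more closely. The tile at 174291001, the nearest read, was at 85.3% and 96.97%.

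At exon 1A and Gnas exon 1, which lie 2257 bp apart, 1 edge tile from 174325001 and an unbroken run of 6 tiles below 10%, to 174332000, covered both starts. The edge tile was at 34.2% in TSPAN8-high against 24.5% in TSPAN8-low, and it holds the edge: its cytosine at 174325645 was at 87.5% and 85.7%, while the 6 that follow ranged from 0% to 35.7% and from 0% to 28.6%. The tile of exon 1A (174327001 to 174328000) was at 1.02% and 0.476%, that after it at 1.45% and 0.858%, and the tile before Gnas exon 1 at 0.855% and 0%. The tile that holds Gnas exon 1 (174330001 to 174331000) was at 2.50% and 0.689%. The last low tile (174331001 to 174332000) had 1 of 47 methylated reads in TSPAN8-high against 7 of 73 in TSPAN8-low, 2.13% and 9.59%. On the upper side the level rose to 76.1% in TSPAN8-high against 85.0% in TSPAN8-low in the tile at 174332001. No step in methylation separated the exon 1A start from the Gnas exon 1 start in these tiles.

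**Figure D2:**
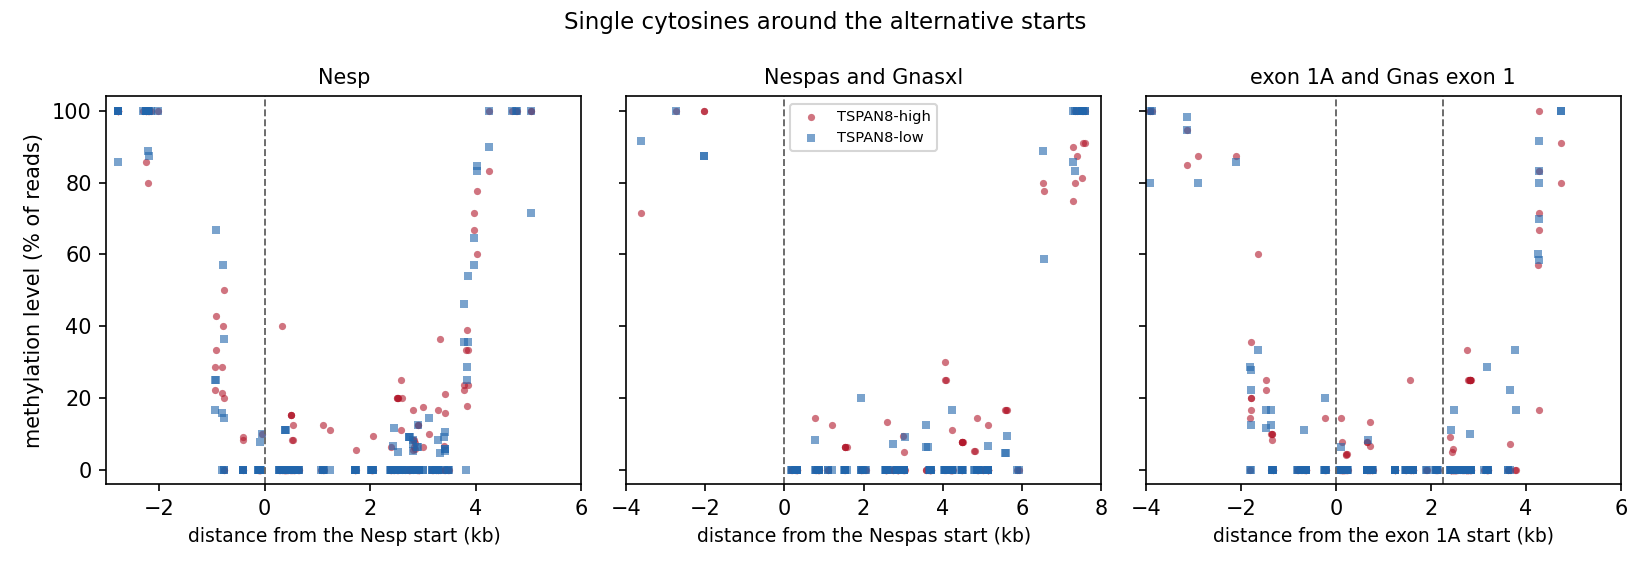
Methylation level (% of reads) of every member cytosine near the starts, against the distance in kb from the Nesp, Nespas and exon 1A start, for TSPAN8-high (circles) and TSPAN8-low (squares). Dashed lines mark the starts, Gnas exon 1 being the second line of the right panel. Most cytosines at the starts lie at 0 in both libraries, and those of the edges spread between 0 and 100%.

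Near the upper end of Gnas, a further low spot lay away from any annotated start of the gene. Cytosines from 2085 to 725 bp before that end ranged from 0% to 33.3% in TSPAN8-high, whereas the range was 0% to 58.3% in TSPAN8-low. The cytosine at 174346003 was at 0 of 10 reads in TSPAN8-high against 1 of 9 in TSPAN8-low. Past the end, at 174346895, the level was 100% in both, and on the other strand, at 174346896, it was 86.7% and 100%. Another low place, with 3 CpGs in the tile at 174357001, lay beyond the gene and was at 11.1% and 14.3%. The low DNA of the locus was thus not limited to the starts.

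The first comparison asked whether the fractions differed at the locus as a whole. Pooled over all members, 37.7% of 9812 reads were methylated in TSPAN8-high (exact 95% interval 36.7 to 38.7) against 37.7% of 10503 in TSPAN8-low (36.8 to 38.6). The difference, high minus low, was -0.0245 percentage points (95% Newcombe interval -1.36 to 1.31). A cytosine was called where Fisher's exact test gave an adjusted p under 0.05 and the levels lay 20 or more percentage points apart. Of the 825 cytosines 0 were called, against 0.00111% over the table. At an unadjusted p below 0.05 there were 6, or 0.727%, against 1.46% of the table. The depth limits this test: with the median reads of the members, 10 and 11, even full methylation in one library and none in the other gives p = 2.84e-06 by Fisher's exact test, above the largest p that passed over the table, 1.28e-06.

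The 3 cytosines with the lowest p lay outside the CpG-dense stretches. At 174325971, in the edge tile before exon 1A, 5 of 14 reads were methylated in TSPAN8-high against 0 of 20 in TSPAN8-low, with p = 0.00719 by Fisher's exact test. At 174312298, between Gnasxl and exon 1A, the reads were 10 of 10 against 3 of 7 (Fisher's exact test, p = 0.0147). At 174275356, below Nesp, they were 12 of 12 against 6 of 10 (Fisher's exact test, p = 0.0287). All 3 were higher in TSPAN8-high, and after adjustment over the table Fisher's exact test gave p = 1 at each. The authors' deposited table gives differences of 0.36, 0.57 and 0.40 as fractions at these cytosines.

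Tiles, stretches and windows were called at an adjusted p under 0.05 with levels 10 or more percentage points apart. Of the 51 tiles 0 were called, against 0.268% of all tiles. With no minimum difference it was also 0, against 0.358%. At an unadjusted p below 0.05 there were 6 tiles, or 11.8%, where all tiles gave 8.60%. All 6 were higher in TSPAN8-high. Of the 51 tiles 34 were higher in TSPAN8-high and 15 lower, with a median difference of 1.22 percentage points. Over all tiles 271765 were higher and 288413 lower, with a median difference of 0. The smallest adjusted p, 0.158 (Fisher's exact test), was that of the tile holding Gnas exon 1. The 5 tiles with the largest differences were 4 edge or end tiles and 1 methylated tile. The tile that reaches over the upper end of Gnas (174346001 to 174347000) had 59.1% in TSPAN8-high against 42.5% in TSPAN8-low, 16.6 percentage points apart, which turned to -1.57 when cytosines were averaged without weights. Its fully methylated cytosine at 174346895 had 24 reads in TSPAN8-high against 8 in TSPAN8-low. The only cytosine of this tile with 10 or more reads in both libraries was at 86.7% and 100%, a difference of -13.3. The edge tiles at 174301001, 174325001 and 174288001 differed by 12.5, 9.75 and -10.4 percentage points, and the methylated tile at 174291001 by -11.7. Each of these 4 had an interval that included 0. Differences at the edges thus had both signs.

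The second comparison asked whether the CpG-dense DNA at the starts differed. Stretches were set from positions alone, as runs of at least 10 listed CpGs with gaps of at most 200 bp. The locus holds 9 of the 31777 in the table, with 208 CpGs: stretches 1 and 2 at Nesp, 3 to 5 at Gnasxl and 6 to 9 at exon 1A and Gnas exon 1. In TSPAN8-high their levels ran from 1.09% to 5.88%, and in TSPAN8-low from 0% to 2.32%. All 9 lay below 10% in both libraries, as did 69.4% of all stretches, and all 9 were higher in TSPAN8-high than in TSPAN8-low. Of the 22431 stretches with a level below 10% over both libraries, 49.1% were higher in TSPAN8-high and 47.4% lower, with a median difference of 0 and the middle 95% from -3.43 to 3.73 percentage points. The 9 stretches had a median difference of 1.56, and pooled they had 111 of 3698 methylated reads (3.00%) against 43 of 3896 (1.10%), a difference of 1.90 (Newcombe bounds 1.27 and 2.56). Within the same boundaries, cytosines with at least 10 reads gave a count of 5 of the 8 stretches that could be measured. With 1 CpG kept per 100 bp it was 5 of 9. Some of the others had a difference of 0: stretch 1 in both cases, and stretches 6 and 7 with 1 CpG kept per 100 bp. On the plus strand the count was 7 of 8, and on the minus strand 8 of 9.

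**Figure D3:**
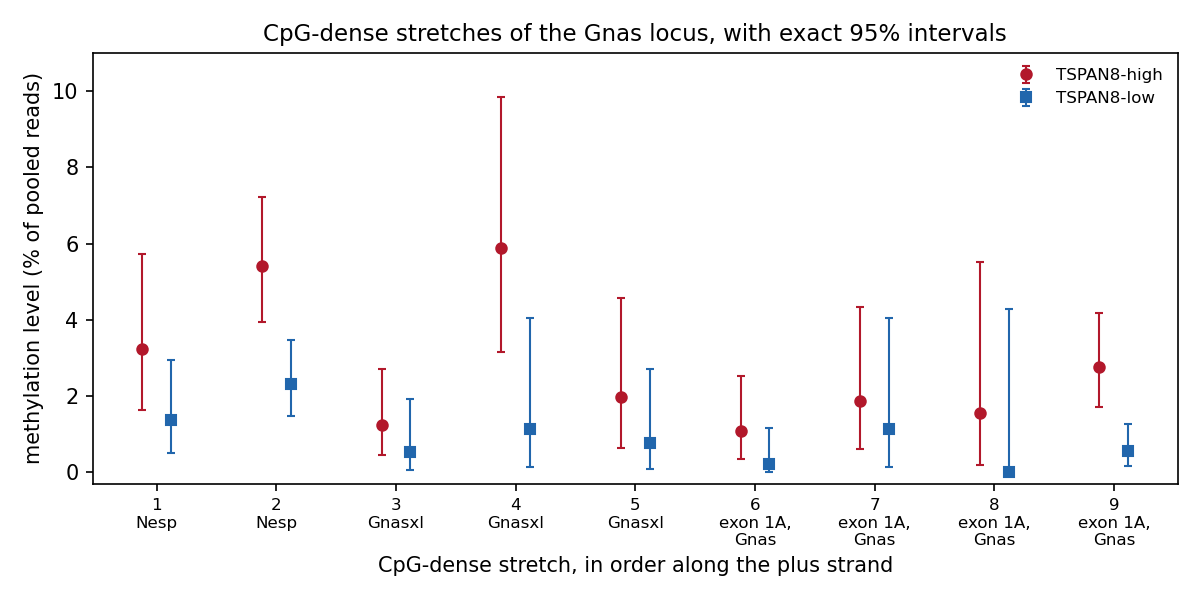
Methylation level (% of pooled reads) of the 9 CpG-dense stretches, in order along the plus strand, for TSPAN8-high (circles) and TSPAN8-low (squares), with exact 95% intervals of the counting error. Every point lies below 6%, and the point of TSPAN8-high is above that of TSPAN8-low in each stretch.

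The 2 Nesp stretches had the highest pooled level of the 3 groups in both libraries, with intervals that overlap those at Gnasxl. Of 1133 reads in TSPAN8-high 54 were methylated (4.77%, exact bounds 3.60 and 6.17), and of 1431 in TSPAN8-low 29 were (2.03%, bounds 1.36 and 2.90). The levels lay 2.74 percentage points apart (Newcombe bounds 1.34 and 4.27). Stretch 1, from 174284592 to 174284977, begins 272 bp after the Nesp start, holds 30 CpGs and was at 3.24% and 1.37%, with a Newcombe interval of the difference that included 0. Stretch 2, from 174286688 to 174287816, holds 37 CpGs and was at 5.42% and 2.32%. Its adjusted p was 0.0236 (Fisher's exact test, over all stretches), with a difference of 3.10 percentage points, below the minimum of 10. The difference at stretch 2 was 4.42 at 10 or more reads, 3.34 on the plus strand and 2.83 on the minus strand.

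The 3 Gnasxl stretches had 24 methylated reads of 952 in TSPAN8-high, or 2.52% with exact bounds of 1.62 and 3.73. In TSPAN8-low they had 6 of 810, or 0.741% with bounds of 0.272 and 1.61. Stretch 3 (174297978 to 174298474, 16 CpGs) was at 1.25% and 0.539%, and its interval of the difference, -0.846 to 2.22, included 0. Stretch 4 (174299465 to 174299690, 15 CpGs) was at 5.88% and 1.14% (Fisher's exact test, adjusted p = 0.163). Its 7 plus-strand cytosines were at 10.5% and 0%, while the 13 on the minus strand were at 1.72% and 1.89%, a difference of -0.163. Stretch 5 (174300224 to 174300589, 14 CpGs) was at 1.98% and 0.760%, again with an interval that included 0. The difference over the group, 1.78 percentage points, was larger on 1 strand, at 3.28 on the plus strand and 0.0544 on the minus strand. At 20 or more reads it was 0, over 5 cytosines.

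The 4 stretches at exon 1A and Gnas exon 1 had 33 methylated reads of 1613 in TSPAN8-high, or 2.05% with exact bounds of 1.41 and 2.86. In TSPAN8-low they had 8 of 1655, or 0.483% with bounds of 0.209 and 0.9502. At 10 or more reads the group was at 0.824% and 0.562%, so its difference shrank from 1.56 to 0.262 percentage points. Stretch 6, which begins 73 bp after the exon 1A start, was at 1.09% and 0.207%, stretch 7 at 1.88% and 1.14%, and stretch 8 at 1.56% and 0 of 84 reads, which allows up to 3.57%. Their intervals of the difference each included 0. Stretch 9 (174330158 to 174330605, 52 CpGs) begins 152 bp after the Gnas exon 1 start. It was at 2.76% and 0.548%, which lie 2.22 percentage points apart (Fisher's exact test, adjusted p = 0.0139). Restricted to cytosines with 10 or more reads, stretch 9 was at 0.560% and 0.548%, so its difference was then 0.0123 percentage points, over 20 of its 75 cytosines.

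In all, 0 of the 9 stretches were called with the minimum of 10 percentage points, against 0.944% of all stretches. At any size of difference 2 passed (stretches 2 and 9), against 4.12%, by Fisher's exact test. With stretches set anew, 2 passed at gaps of at most 100 bp (8 stretches), at least 5 CpGs (34 stretches) and at least 20 CpGs (3 stretches). None passed with gaps of up to 400 bp (12 stretches) or from cytosines with 10 or more reads (2 stretches). At an unadjusted p below 0.05 there was 1 further stretch, number 4. For the stretches set anew and for this cutoff, no share over all stretches is given here. Whether these counts are unusual is therefore not shown. Because 1 read can enter at several CpGs, the p values of the stretches are too small and their intervals too narrow.

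Methylated reads in the stretches lay at 65 cytosines in TSPAN8-high and at 32 in TSPAN8-low. Of 318 cytosines 231 had no methylated read in either library, 55 had some in TSPAN8-high only, 22 in TSPAN8-low only and 10 in both. Of the 10, 8 lay at Nesp. In TSPAN8-high 22 cytosines reached 20% and the highest was at 40%, while in TSPAN8-low none reached 20% and the highest was at 16.7%. The 22 cytosines had a median of 8 reads and 15 of them had fewer than 10. No cytosine of the stretches had more than 4 methylated reads. Over the whole locus, both strands of 293 CpGs were read, and they differed by over 20 percentage points at 25 CpGs in TSPAN8-high but at 11 in TSPAN8-low. The counts of this paragraph were not made over the whole table. They therefore do not show whether the overlap or the strand differences are unusual.

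The third comparison set the Gnas starts beside other imprinted genes, in windows of 1 kb either side of a start. The Nesp window, with 45 CpGs, had 7.96% (exact bounds 5.98 and 10.3) in TSPAN8-high against 4.38% (3.05 and 6.07) in TSPAN8-low. It includes every read cytosine of the edge tile before the start. That tile gave 39 of its 51 methylated reads in TSPAN8-high and 26 of 34 in TSPAN8-low. The tile that holds the Nesp start was at 2.52% and 1.32%. Windows of the other starts were lower than the Nesp window. Nespas was at 1.16% and 0.575%, exon 1A at 1.22% (0.612 to 2.18) and 0.577% (0.188 to 1.34), and Gnas exon 1 at 2.14% (1.36 to 3.19) and 0.603% (0.243 to 1.24). Of the 4, Nespas and Gnas exon 1 (the Gnas start with the most CpGs) were tested among all windows. Nespas had an adjusted p of 0.941 and Gnas exon 1 one of 0.0482 (Fisher's exact test), with levels 1.54 percentage points apart, and neither was called. The Gnas exon 1 window did not pass at any other width or read minimum that could measure it: its difference was 0.282 within 500 bp of the start, 0.892 within 2 kb and 0.00419 at 10 or more reads.

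All 15 genes of a list with marks set in the oocyte had enough CpGs, and 14 of them (93.3%) lay below 10% in both libraries, as did 56.6% of all 28173 windows, with medians of 1.88% in TSPAN8-high against 1.04% in TSPAN8-low. The windows lie at the start with the most CpGs, or at a gene end where no start was given, which need not be the control region. Among those with the most reads were Zrsr1 (0.993% and 0.762%), Inpp5f (2.11% and 0.956%) and Mest (1.65% and 2.05%), and the highest level stood at the amino acid transporter gene Slc38a4 (13.9% and 13.5%). None was called, against 0.852% of all windows. At any size of difference 4 passed, against 3.4% of all windows: the growth regulators Plagl1 and Grb10 and the RNA gene Peg13 higher in TSPAN8-high, by 1.74, 2.21 and 3.08 percentage points, and the RNA gene Kcnq1ot1 lower, with a difference of -5.31. As unweighted means over cytosines the differences were 0.951 at Plagl1, 0.354 at Grb10, 3.42 at Peg13 and -2.33 at Kcnq1ot1, and within 500 bp of the start that of Grb10 turned to -0.354. Each of the 4 failed to pass under at least 1 other width or read minimum. Of the 15, 8 were higher and 7 lower in TSPAN8-high. Upstream of H19 by 1 to 5 kb, where methylation is set in the male germ line, all 13 cytosines were above 80% in both libraries. Pooled, TSPAN8-high had 98.4% there (exact bounds 95.5 and 99.7) and TSPAN8-low 97.1% (93.8 and 98.9). The starts of H19, Meg3, Rasgrf1 and Zdbf2 themselves were below 10% in both, with Zdbf2 at 0.9503% and 1.07% and Meg3 at 9.29% and 8.23%. All 4 Gnas windows thus lay far below the H19 upstream region in both libraries. Most methylated reads of the Nesp window came from the edge tile. By pooled reads, this window lay above the medians of the oocyte list and, in TSPAN8-high, above every member except Slc38a4. In TSPAN8-low, at 4.38%, it lay below Slc38a4, Kcnq1ot1 (8.28%), Airn (6.09%) and Nap1l5 (4.79%). As an unweighted mean over cytosines it was at 6.01% in TSPAN8-high, below Slc38a4 (15.6%), Airn (8.97%) and Kcnq1ot1 (8.52%).

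**Figure D4:**
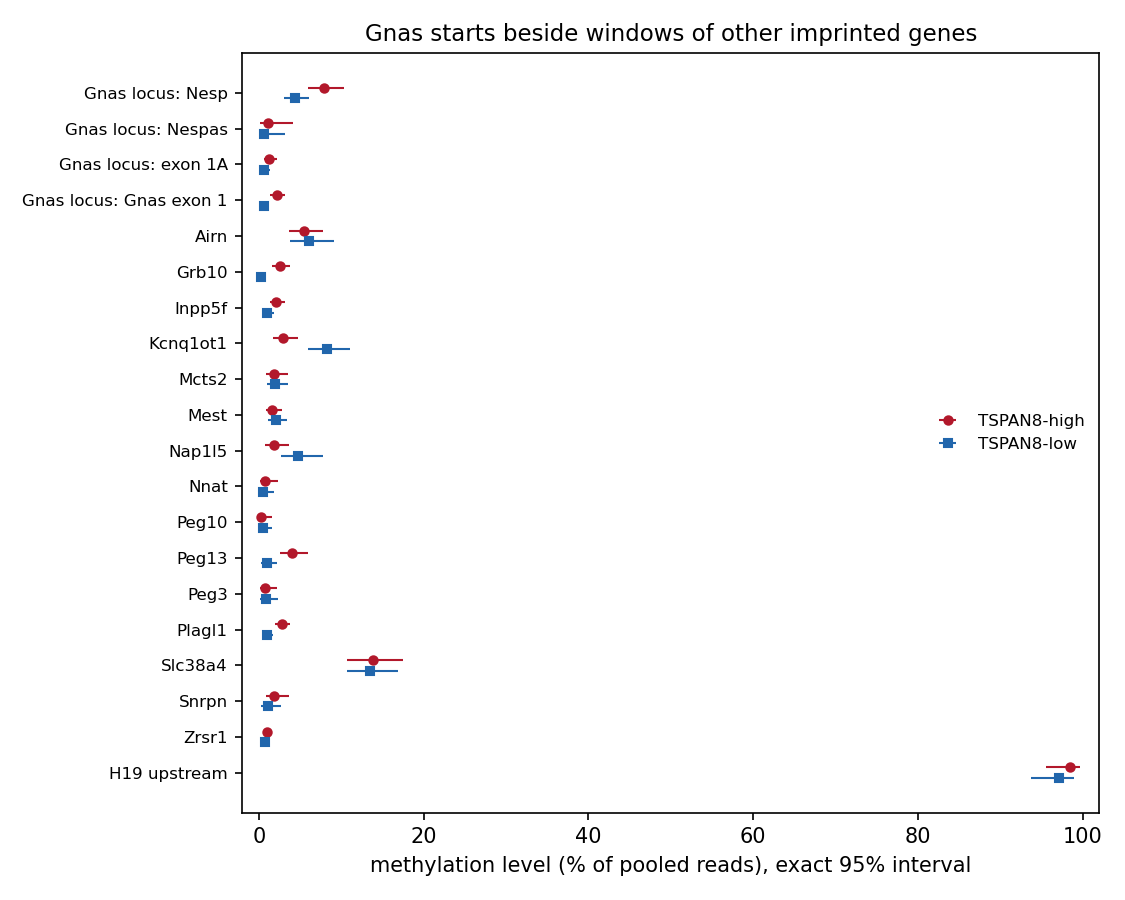
Methylation level (% of pooled reads, with exact 95% intervals) in windows at 4 Gnas starts, at 15 genes with marks set in the oocyte and upstream of H19, for TSPAN8-high (circles) and TSPAN8-low (squares). All points lie below 15% except those upstream of H19, which lie above 95% in both libraries.

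Genes that act with Gs alpha were mostly low at their starts in both libraries. Of 40 genes of the stimulatory G protein and cAMP pathway, 36 had enough CpGs and 34 of them (94.4%, against 56.6% of all windows) lay below 10% in both libraries, with a median difference of 0.0371 percentage points against -0.0277 over all windows. Of the 36, 0 were called, against 0.852% of all windows, and 18 were higher and 18 lower in TSPAN8-high. Examples with many reads are the adenylyl cyclase gene Adcy5 (0.827% and 1.01%), the phosphodiesterase gene Pde7a (0.553% and 0.762%), the transcription factor gene Creb1 (0.308% and 0.649%) and the protein kinase A subunit gene Prkar1b (1.70% and 1.36%). At any size of difference 1 of 36 passed, against 3.4% of all windows: the adenylyl cyclase gene Adcy9 (2.71% and 0.358%, adjusted p = 0.0344, Fisher's exact test), whose adjusted p was 0.0588 within 500 bp and 0.340 within 2 kb. The 2 above 10% were the phosphodiesterase gene Pde4b (34.9% and 41.2%) and Fshr, the receptor of follicle-stimulating hormone (34.9% and 20.7%, 5 CpGs; Fisher's exact test, adjusted p = 0.332). Adcy9, Pde4b and Fshr were chosen after their values were seen.

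The nearest protein-coding neighbours of Gnas are Npepl1, 162 kb away on the lower side, and Nelfcd, 69.1 kb away on the upper side. Their windows were at 1.63% and 1.19% and at 1.38% and 0.946%. Of 9 neighbours 7 were measured, and 6 were below 10% in both (85.7%, against 56.6% of all windows). None was called, against 0.852% of all windows. The neighbour above 10%, Atp5e, was at 13.0% and 17.4% (Fisher's exact test, adjusted p = 0.317) and was named after its values were seen. The syntaxin gene Stx16 was at 1.10% and 0.978%, and Prelid3b at 2.93% and 2.72%. Of 9 germ cell genes 8 had enough CpGs, and 7 of these lay below 10% in both (87.5%, against the same 56.6%). Dazl, which encodes an RNA-binding protein, was at 2.48% and 1.40%, and Sycp3, of the synaptonemal complex, at 1.16% and 1.89%. Slc25a31 was at 2.24% and 2.96%, Sycp1 at 1.25% and 1.63%, and 0 of the 8 were called, against the same 0.852%.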

How the data were processed

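RRBS libraries of TSPAN8-high and TSPAN8-low, 1 each, were compared. The authors deposited 1 table with a line per cytosine: the methylation level as a fraction, rounded to 2 decimals, the read count, the difference in level (high minus low) and a p-value. Per the submitters' processing notes, mm9, mm10, Bowtie and SICER were used, with no role given; other steps are not given in the sources used here. Table positions fit mm10, since listed cytosines fall on CpGs of GRCm38 promoter sequences. The deposited p-value equalled Fisher's exact test, to a relative difference of at most 0.001, for 93.6% of cytosines.

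Methylated reads were computed as level times reads, rounded. Read counts summed over the 6745376 cytosines were 83658949 and 83773700 for the 2 libraries, with a median of 10 per cytosine in each. Two-sided Fisher's exact tests were adjusted (Benjamini-Hochberg) across all cytosines, 1-kb tiles (at least 3 CpGs), stretches or windows (at least 5 CpGs) of the table. Calls needed an adjusted p below 0.05 and 20 percentage points for cytosines, 10 otherwise. Intervals are exact Clopper-Pearson or Newcombe, and a count of 0 allows 3 counts of the total. Where CpGs were pooled the intervals are too narrow, since a read is counted at each CpG it covers. Reads carry no molecular identifiers and so need not be separate molecules. Python 3.11.15 and scipy 1.17.1 were used, and the tests were checked on simulated data.

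The locus and the gene lists were chosen with earlier results of these data known. All stretches were named; without calls, the 3 cytosines with the lowest p and the 5 tiles with the largest difference were named, and of each list the 4 members with the most reads; imprinted genes could also be given by level. Windows were set at the annotated start with the most CpGs, or at the gene end with more CpGs where none was given. Alternatives were other read minimums, strands, weights, gaps, tile and window sizes.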

Additional observations from a re-analysis of the deposited data

How the results depend on the processing

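The locus difference of -0.0245 percentage points was 0.240 at 10 or more reads, 0.0659 on the plus strand, 0.615 as an unweighted mean and -1.44 at 20 or more reads. Over all 9 stretches the difference of 1.90 was 2.73 on the plus strand, 1.19 on the minus strand and 0.586 at 20 or more reads, where 18 cytosines remain. The count of stretches higher in TSPAN8-high, a summary added after seeing the data, was 9 of 9. Within the same boundaries it was 7 of 8 on the plus strand and 8 of 9 on the minus strand. It was 5 of 8 at 10 or more reads, 2 of 5 at 20 or more and 5 of 9 with 1 CpG kept per 100 bp. In these last 3 settings some of the other stretches had a difference of 0. With no minimum difference 2 stretches were called in place of 0. Direction turned at stretch 3 (-0.153 at 10 or more reads, -0.855 with 1 CpG kept per 100 bp), stretch 4 (-0.163 on the minus strand) and stretch 7 (-1.12 at 10 or more reads, -8.33 at 20 or more, -0.817 on the plus strand). It also turned in the tile at 174301001 (-8.89 on the plus strand) and in that at 174346001 (-13.3 at 10 or more and at 20 or more reads, -3.27 with 1 CpG kept per 100 bp, -1.57 unweighted). With no minimum difference, an alternative for windows added after seeing the data, 4 windows of the oocyte list, 1 of the cAMP list and 1 of Gnas were called. Counts of called cytosines and tiles were 0 under the alternatives run, and those of listed windows under other widths and read minimums. At any size of difference, 1 of 53 tiles of 500 bp passed. Some listed windows passed at any size only under an alternative: Gng5 and Dazl within 500 bp, Prkar2b at 10 or more reads and Atp5e within 2 kb. No share over all tiles or windows is given here for these. The Grb10 window turned to -0.354 within 500 bp. Stretches set anew numbered 2 at 10 or more reads (1 higher, 1 lower) and 0 at 20 or more. Median depth of 10 to 11 reads limits single cytosines. No paired analysis was possible because each fraction has 1 library and the labels give no replicate numbers.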
